A study of Mus musculus with 110 samples.

Results

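The genes described here are the heat shock protein, chaperone and co-chaperone genes of a mouse RNA-seq series on the R6/2 model of Huntington's disease. They were chosen by symbol: the DNAJA, DNAJB and DNAJC genes (with Dnajc12 left out), the HSP70 and HSP110 genes, the small heat shock protein genes, Hsp90aa1, Hsp90ab1, Hsp90b1, Hsph1, the chaperonin pair Hspd1 and Hspe1, Bag1 to Bag6, and the heat shock factors Hsf1, Hsf2 and Hsf4. Of 24060 gene rows in the deposited count table, 78 matched. The study combined the R6/2 transgene, which expresses a fragment of mutant human huntingtin, with adeno-associated viruses (AAV) for a zinc-finger protein (ZFP) that represses the mutant gene, or for a control called Delta. The 4 conditions were NCAR mice with Delta (ND), NCAR mice with ZFP (NZ), R6/2 mice with Delta (RD) and R6/2 mice with ZFP (RZ). NCAR is the labels' name for the control genotype and is not expanded there, and the strain field of every sample, controls included, names the R6/2 line. In all groups ribosomes of the chosen cell type carried an HA tag (RiboTag), and RNA was read either from the ribosomes pulled down through the tag (IP) or from the starting homogenate (Input).

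The libraries fall into 4 sets, named here as the labels name them. MG (IP, 4 libraries in each of the 4 conditions) and n_ZFP_a_Rpl (IP and Input, with 4 ND, 4 NZ, 3 RD and 4 RZ in the IP) are labelled astrocytes. hSyn (IP and Input, with 5 ND, 4 NZ, 3 RD and 4 RZ in the IP) and n_ZFP_n_Rpl (IP and Input, 4 in each condition) are labelled neurons. The labels do not give the tissue, the age, the promoters, or which cells received the ZFP in each set, and they number replicates without saying whether each was a separate animal. Every p-value therefore measures the spread between these samples.

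Chaperones of the HSP70 family bind exposed hydrophobic stretches of unfolded proteins in a cycle driven by ATP. J-domain proteins (DNAJ) deliver clients to HSP70 and trigger its ATPase, and nucleotide exchange factors such as the HSP110 and BAG proteins release them again. HSP90 acts later on partly folded clients, small heat shock proteins hold aggregation-prone proteins without ATP, and HSPD1 with HSPE1 folds proteins in the mitochondrial matrix. HSF1 drives the inducible members when unfolded protein accumulates in the cytosol, while the unfolded protein response drives those of the endoplasmic reticulum (ER). Several members, among them the DNAJB proteins, are known to slow the aggregation of polyglutamine proteins such as mutant huntingtin.

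Between 26369041 and 72623472 reads per library were assigned to genes. Summed over a list of astrocyte markers, counts per 1000000 reads (CPM) ran from 11600 to 34700 in the astrocyte IPs and from 1440 to 7310 in the neuron IPs, so neither kind of IP was free of RNA from the other. A list of neuron markers separated the IPs less: it summed to 5340 to 5940 CPM in ND of MG and 5210 to 5480 in ND of n_ZFP_a_Rpl, where its own Input held 4430 to 4860, and to 6010 to 6580 in ND of hSyn and 6900 to 9060 in ND of n_ZFP_n_Rpl. Microglial markers summed to at most 27.8 CPM in the IPs and to between 335 and 1560 in the Inputs. Markers of striatal projection neurons were lower in RD than in ND in every set, also in the astrocyte IPs. Their sums were 7980 to 8600 CPM in ND and 2020 to 2860 in RD of the MG IP, and 13500 to 15500 against 4580 to 4590 in the hSyn IP. Immediate early genes summed to 702 to 1450 CPM in ND and 288 to 361 in RD of the hSyn IP. Their part in the results below was not tested. By their distance from the rest of their group over all genes, 4 libraries stood apart (MG NZ 2, RZ 1 and RZ 4, and the Input of hSyn NZ 1), and MG RD 2 stood apart by its immediate early sum of 1190 CPM against 136 to 170 in the other RD libraries.

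After a filter on low counts, 70 members were tested in all 7 tables (a set and fraction), and 3 in some of them (Hspa1l, Hspb2 and Hspb3). Dnajb7, Dnajb8, Dnajc22, Hspb7 and Hspb9 had too few reads for any test. Hspa1a and Hspa1b are near-identical copies, and Hspa8, Hsp90ab1, Hspd1 and Hspe1 have many processed pseudogenes, so reads of these genes may have been lost or moved in the authors' counting.

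Promoter sequences are shown for some of the members named below that hold an ER stress element or a heat shock element. Whether these elements had a part in the results was not tested. The bases are the 250 upstream of the annotated start from RefSeq (build GRCm38.p6), written along the strand of the gene. Capitals in the first 3 mark the ER stress element, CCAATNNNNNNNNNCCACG on either strand, the site through which the unfolded protein response acts on ER chaperone genes. Hspa5 (chr2:34771840-34772089, plus strand), Hsp90b1 (chr10:86705445-86705694, minus strand) and Dnajc3 (chr14:118937682-118937931, plus strand) were the only ones of the 63 members with a RefSeq promoter window to hold it. That is 4.76% of these members, against 0.137% of 27025 genes with a window of the same length.
Hspa5: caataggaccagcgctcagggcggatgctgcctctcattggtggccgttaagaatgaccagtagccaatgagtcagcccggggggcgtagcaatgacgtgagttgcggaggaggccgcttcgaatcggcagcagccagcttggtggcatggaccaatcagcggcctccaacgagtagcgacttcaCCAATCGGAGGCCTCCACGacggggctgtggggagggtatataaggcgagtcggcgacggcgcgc
Hsp90b1: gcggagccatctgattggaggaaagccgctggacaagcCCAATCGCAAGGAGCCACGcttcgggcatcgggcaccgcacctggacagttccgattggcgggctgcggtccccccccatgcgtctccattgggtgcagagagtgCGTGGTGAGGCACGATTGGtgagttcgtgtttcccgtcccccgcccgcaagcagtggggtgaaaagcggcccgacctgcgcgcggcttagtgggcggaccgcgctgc
Dnajc3: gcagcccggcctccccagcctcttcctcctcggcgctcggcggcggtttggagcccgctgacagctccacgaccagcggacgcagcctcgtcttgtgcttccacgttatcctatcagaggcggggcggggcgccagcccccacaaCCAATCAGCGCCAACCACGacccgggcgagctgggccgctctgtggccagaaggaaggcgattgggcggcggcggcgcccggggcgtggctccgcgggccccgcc

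Capitals in the next 2 mark GAANNTTC, a pair of inverted units of the heat shock element bound by HSF1. This palindrome reads the same on both strands. It was found in the window of 14 of the 63 members (22.2%) and of 9.04% of all genes. The other arrangement, TTCNNGAA, was found in 6 members (9.52%) and in 9.6% of all genes. The longer GAANNTTCNNGAA, which contains both, was found in Dnajb6, Hspd1, Hspe1 and Hsph1 (6.35% of members) and in 0.662% of all genes. The windows shown are those of Hspa1a (chr17:34972157-34972406, minus strand), whose window is identical to that of Hspa1b at 247 of 250 bases, and of Hspb1 (chr5:135887669-135887918, plus strand), which holds the motif in 2 places.
Hspa1a: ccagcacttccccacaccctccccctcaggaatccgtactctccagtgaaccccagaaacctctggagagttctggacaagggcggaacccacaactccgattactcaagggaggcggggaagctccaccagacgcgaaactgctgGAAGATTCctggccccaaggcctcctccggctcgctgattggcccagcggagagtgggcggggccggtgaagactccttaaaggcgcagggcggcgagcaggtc
Hspb1: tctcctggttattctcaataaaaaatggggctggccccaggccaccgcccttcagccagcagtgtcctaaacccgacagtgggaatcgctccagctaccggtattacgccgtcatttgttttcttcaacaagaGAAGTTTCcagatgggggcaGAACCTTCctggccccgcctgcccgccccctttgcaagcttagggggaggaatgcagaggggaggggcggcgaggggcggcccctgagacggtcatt

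In R6/2 mice with the control virus, compared with NCAR mice with the same virus (RD vs ND), some chaperone genes rose and others fell in every IP, and the share of members that changed was below that of all genes in the 4 IPs. In the MG IP 14 of 71 members tested rose and 4 fell (25.4%, against 33.5% of all genes tested, of which 17.4% rose and 16.2% fell). In the n_ZFP_a_Rpl IP 18 of 72 rose and 8 fell (36.1%, against 45.3%, with 20.6% up and 24.7% down). In the hSyn IP 15 of 71 rose and 14 fell (40.8%, against 51%, with 25.4% up and 25.5% down). In the n_ZFP_n_Rpl IP 11 of 72 rose and 16 fell (37.5%, against 51.4%, with 25.2% up and 26.2% down). The median log2 fold change of the members was 0.048 in MG, 0.032 in n_ZFP_a_Rpl, -0.029 in hSyn and -0.028 in n_ZFP_n_Rpl, beside 0.035, -0.00051, -0.00074 and -0.0020 for all genes. Called members were those with an adjusted p under 0.05 in edgeR's quasi-likelihood test, with Benjamini-Hochberg adjustment over all genes. All p-values below are of this kind, and fold changes are log2 values ± standard error. In these bulk samples, fewer cells of a type and less RNA per cell cannot be told apart.

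In the hSyn Input 14 of 73 members rose and 11 fell (34.2%, against 44.1% of all genes, with 22.5% up and 21.6% down). In the n_ZFP_a_Rpl Input 21 of 71 rose and 14 fell (49.3%, against 49.1%, with 24.4% up and 24.7% down). In the n_ZFP_n_Rpl Input 15 of 72 rose and 14 fell (40.3%, against 49.8%, with 26.1% up and 23.7% down). By family, the 24 DNAJC genes tested split into 7 that rose and 1 that fell in MG, and into 7 and 4 in n_ZFP_n_Rpl. Of the small heat shock genes none rose in any IP, and 3 of 6 tested fell in n_ZFP_n_Rpl. Among the 4 DNAJA genes, 3 rose in n_ZFP_a_Rpl and none changed in n_ZFP_n_Rpl. Of all genes, 17.4% rose and 16.2% fell in the MG IP, and 20.6% and 24.7% did in the n_ZFP_a_Rpl IP. In the hSyn IP 25.4% rose and 25.5% fell, and in the n_ZFP_n_Rpl IP 25.2% and 26.2% did. The map of fold changes by member and table shows the directions of the members side by side.

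**Figure D1:**
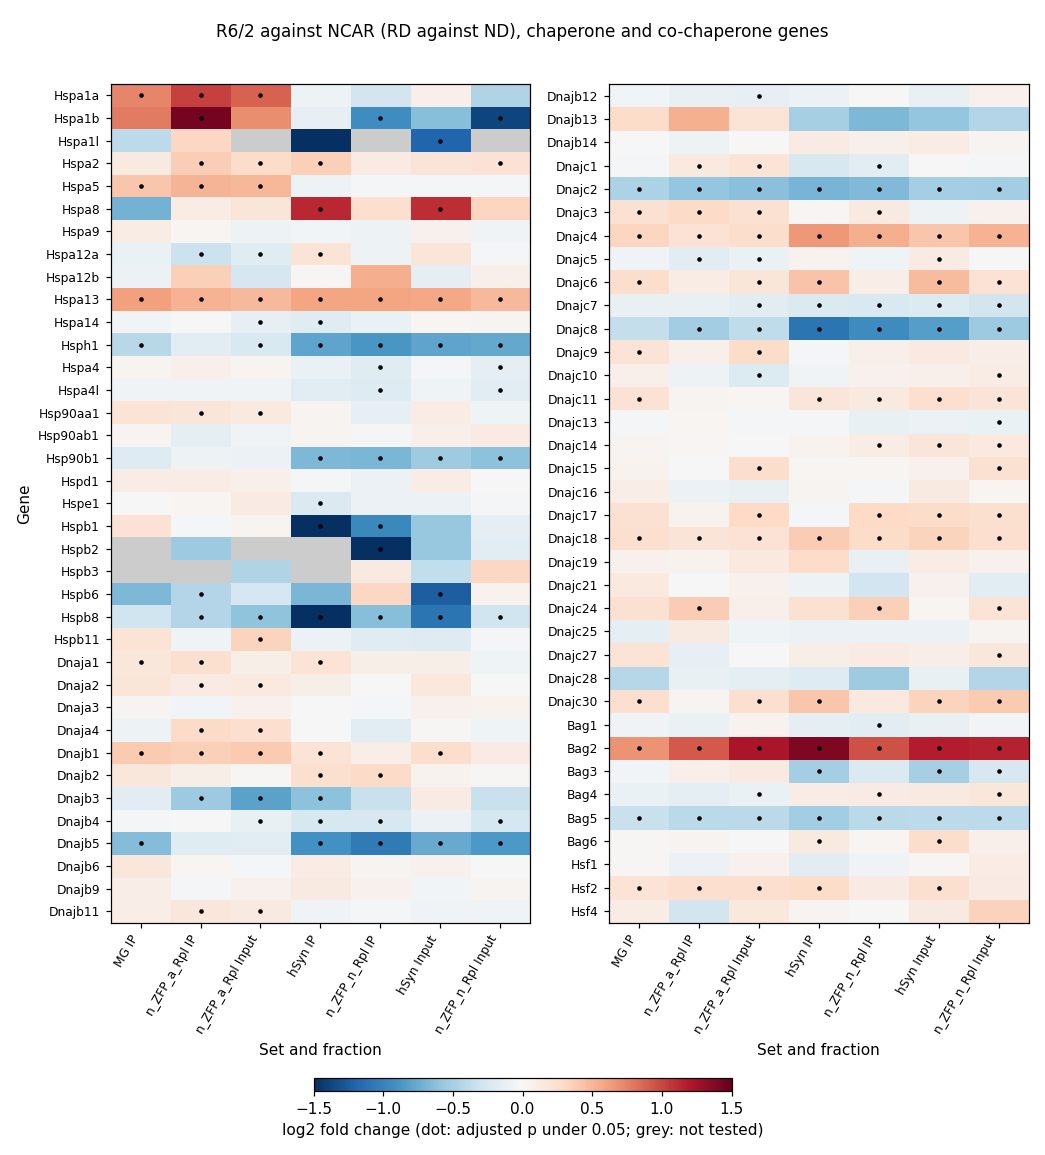
Log2 fold change of each tested member in RD against ND, grouped by family, in the 4 IPs (MG, n_ZFP_a_Rpl, hSyn, n_ZFP_n_Rpl) and 3 Inputs. Red is higher and blue lower in R6/2, the shade ends at 1.5 in either direction, dots mark an adjusted p under 0.05 and grey cells were not tested. Bag2 and Hspa13 are red and Dnajc2 blue across all 7 tables, and Hspa5 is red in the n_ZFP_a_Rpl IP and Input and in MG only.

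Across the 4 IPs, 6 of the 70 members tested in all of them changed in 1 direction throughout, against 20.1% of 14728 genes (8.83% up and 11.2% down). Those that rose were Bag2, Hspa13, Dnajc4 and Dnajc18, and those that fell were Bag5 and Dnajc2. Leaving out any 1 library gave between 5 and 7 such members.

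Bag2 encodes a BAG-domain cofactor of HSP70 that inhibits the ubiquitin ligase CHIP. In the hSyn IP it stood at 5.76, 4.32, 4.13, 3.41 and 4.24 CPM in ND and at 9.88, 12.9 and 11.8 in RD. In the n_ZFP_n_Rpl IP the ND libraries held 5.3, 5.91, 5.63 and 4.19 CPM and the RD libraries 9.44, 11.8, 10.3 and 9.33. Every RD library lay above every ND library in both. The astrocyte IPs showed the same separation, with 6.78 to 8.26 CPM in ND and 11.5 to 13.2 in RD of MG, and 4.1 to 6.88 in ND and 9.34 to 11.3 in RD of n_ZFP_a_Rpl. The log2 fold change was 1.40 ± 0.17 in hSyn (adjusted p = 3.72e-06), 0.96 ± 0.16 in n_ZFP_n_Rpl (1.67e-04), 0.68 ± 0.10 in MG (8.25e-05) and 0.93 ± 0.17 in n_ZFP_a_Rpl (4.37e-04). The Inputs gave 1.18, 1.22 and 1.16 in hSyn, n_ZFP_a_Rpl and n_ZFP_n_Rpl.

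Hspa13, an HSP70-like ATPase of microsomes, rose by a similar amount in each set. ND libraries of the n_ZFP_n_Rpl IP held 74.3, 73, 77.8 and 74.5 CPM, and RD libraries 104, 112, 116 and 119. In the n_ZFP_a_Rpl IP the values were 90.7, 94.2, 95.9 and 101 in ND and 143, 139 and 128 in RD. The groups did not overlap in any IP. Fold changes were 0.62 ± 0.07 in MG (adjusted p = 5.63e-06), 0.52 ± 0.05 in n_ZFP_a_Rpl (3.51e-07), 0.60 ± 0.05 in hSyn (3.61e-08) and 0.59 ± 0.06 in n_ZFP_n_Rpl (9.51e-07), with 0.48 to 0.58 in the Inputs. Dnajc4 rose by 0.32, 0.22, 0.65 and 0.54, and Dnajc18 by 0.23, 0.20, 0.38 and 0.27, in MG, n_ZFP_a_Rpl, hSyn and n_ZFP_n_Rpl.

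Dnajc2, the J-domain protein of the ribosome-associated complex that meets nascent chains, fell in all 4 IPs. In hSyn it stood at 95.6, 98.5, 97.1, 103 and 106 CPM in ND and at 59.3, 66.6 and 59 in RD. In n_ZFP_a_Rpl it stood at 43.9, 42.1, 43.8 and 44.2 in ND and at 31.3, 27.4 and 28.3 in RD. No RD library reached the lowest ND library of its IP. The fold changes were -0.47 ± 0.11 in MG (adjusted p = 0.00415), -0.58 ± 0.06 in n_ZFP_a_Rpl (9.16e-07), -0.70 ± 0.09 in hSyn (6.86e-06) and -0.66 ± 0.07 in n_ZFP_n_Rpl (1.46e-06), and -0.51, -0.63 and -0.52 in the hSyn, n_ZFP_a_Rpl and n_ZFP_n_Rpl Inputs. Bag5, another BAG-domain regulator of HSP70, changed by -0.33, -0.40, -0.53 and -0.40 in MG, n_ZFP_a_Rpl, hSyn and n_ZFP_n_Rpl.

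Dnajc8, which associates with the splicing machinery, had replicates that lay close together. In the n_ZFP_n_Rpl IP it was at 81.9, 81.7, 85.5 and 85.9 CPM in ND and at 43.5, 43.5, 43 and 43.9 in RD. In the hSyn IP it was at 173, 162, 178, 178 and 164 in ND and at 74, 87.2 and 78.5 in RD. RD libraries thus lay near the midpoint between 0 and the ND level in both neuron IPs. The fold change was -0.95 ± 0.04 in n_ZFP_n_Rpl (adjusted p = 1.72e-10), -1.10 ± 0.08 in hSyn (2.10e-08) and -0.53 ± 0.04 in n_ZFP_a_Rpl (2.54e-08). In MG it was -0.36 ± 0.15 and did not pass the test (adjusted p = 0.0694), although ND libraries (139 to 148 CPM) lay above RD libraries (105 to 119).

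**Figure D2:**
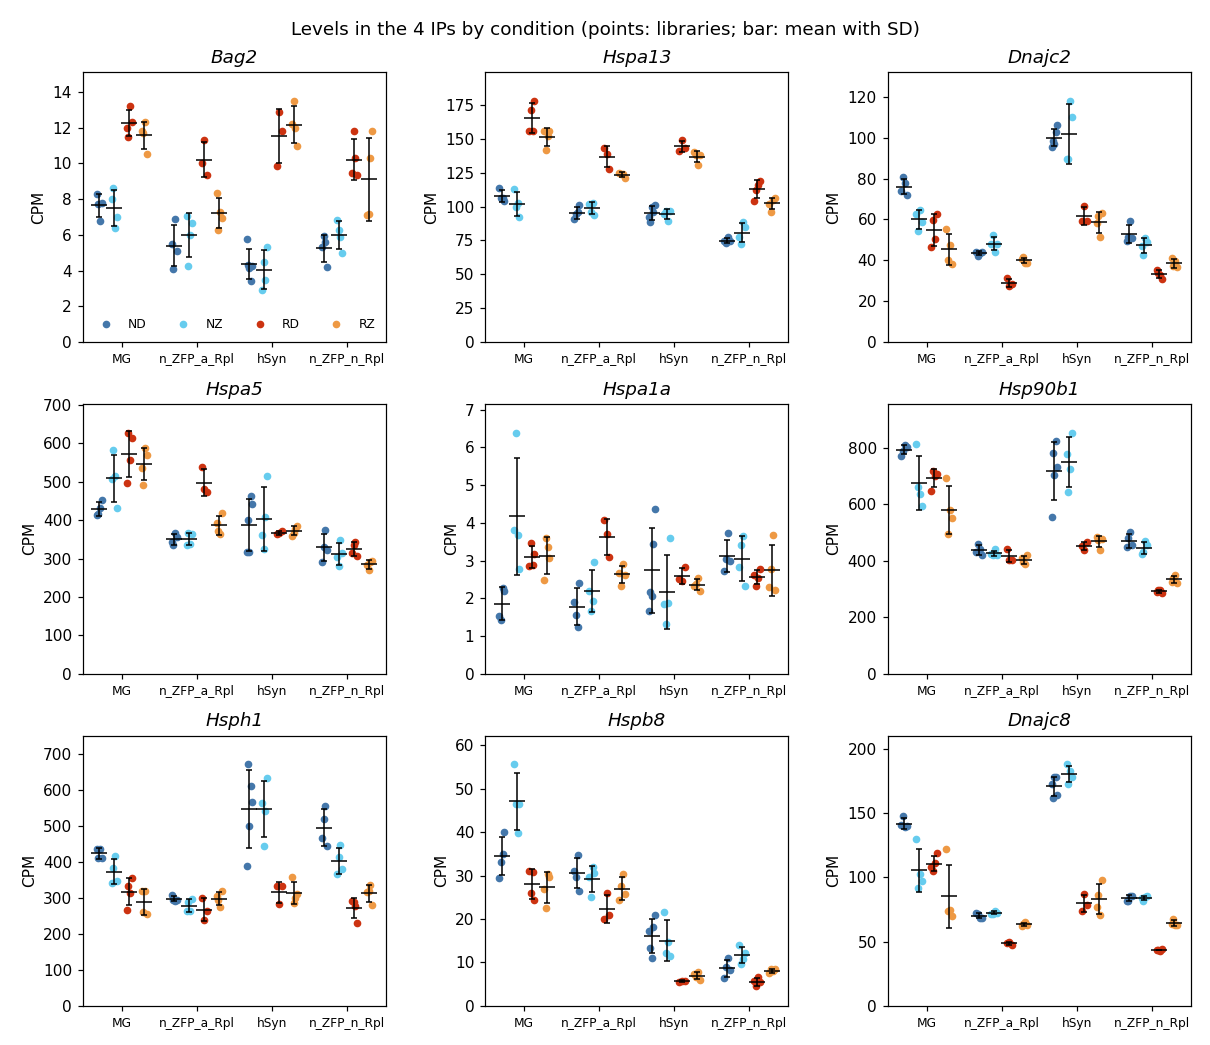
Level of 9 members in CPM (vertical axes, from 0) by condition (ND, NZ, RD, RZ) in the 4 IPs, with 1 point per library and a bar for the mean ± SD. Bag2 and Hspa13 were higher and Dnajc2 lower in RD than in ND in all 4 IPs, and Hspa5 was higher in the astrocyte IPs. Hsp90b1 was lower in the neuron IPs, and Hsph1 was lower in the neuron IPs and in MG.

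The HSP70 of the ER lumen, Hspa5 (BiP), rose in both astrocyte IPs and not in the neuron IPs. In the n_ZFP_a_Rpl IP the ND libraries held 343, 335, 367 and 355 CPM and the RD libraries 538, 480 and 473. In the MG IP they held 414, 415, 432 and 453 in ND and 495, 627, 556 and 612 in RD. The groups did not overlap in either. The fold change was 0.51 ± 0.06 in n_ZFP_a_Rpl (adjusted p = 3.54e-06) and 0.42 ± 0.09 in MG (0.00256). In the hSyn IP, ND libraries ranged from 316 to 462 CPM and RD libraries from 363 to 372, and in the n_ZFP_n_Rpl IP from 291 to 375 and from 306 to 343. RD libraries of both neuron IPs lay within the range of ND, with fold changes of -0.08 ± 0.14 (0.652) and -0.02 ± 0.07 (0.823).

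In the Inputs the change of Hspa5 went with the set. It was at 213, 219, 232 and 220 CPM in ND and at 335, 296 and 304 in RD of the n_ZFP_a_Rpl Input, a rise of 0.50 ± 0.05 (adjusted p = 1.24e-07). It was at 214, 247, 291 and 228 in ND and at 241, 261, 245 and 223 in RD of the n_ZFP_n_Rpl Input, where the fold change was -0.02 (0.895). In the hSyn Input it was -0.03 (0.891).

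Dnajc3 (P58IPK), an ER J-domain protein that binds BiP, moved with it in the n_ZFP_a_Rpl IP, from 108, 104, 116 and 104 CPM in ND to 137, 130 and 128 in RD (0.29 ± 0.05, adjusted p = 5.36e-04). Its rise of 0.23 in MG (0.0471) and of 0.14 in n_ZFP_n_Rpl (0.0481) passed narrowly, and neither did after scaling by RLE factors (0.0661 and 0.0504). Of the 8 members that work in the ER, 5 rose and none fell in the n_ZFP_a_Rpl IP (median 0.16) and 3 rose in MG (median 0.096), while 1 rose and 1 fell in hSyn (median -0.053) and 2 rose and 2 fell in n_ZFP_n_Rpl (median 0.021). Of all genes, 45.3%, 33.5%, 51% and 51.4% were called in these IPs, in that order.

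Hsp90b1 (GRP94), the HSP90 of the ER and the third gene with the ER stress element, did not rise in any table. In the n_ZFP_n_Rpl IP it fell from 449, 482, 501 and 455 CPM in ND to 291, 297, 296 and 287 in RD. In the hSyn IP it fell from 555, 781, 703, 824 and 731 to 452, 437 and 466. The groups did not overlap in either, and the fold changes were -0.69 ± 0.05 (adjusted p = 2.18e-08) and -0.67 ± 0.10 (5.35e-05). The n_ZFP_n_Rpl and hSyn Inputs gave -0.61 ± 0.06 (2.94e-07) and -0.54 ± 0.09 (1.79e-04). In the astrocyte sets it did not pass the test, at -0.19 in MG (0.153), -0.07 in the n_ZFP_a_Rpl IP (0.196) and -0.09 in its Input (0.127).

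The stress-inducible HSP70 gene Hspa1a rose in the astrocyte IPs. In n_ZFP_a_Rpl it was at 1.9, 1.57, 1.25 and 2.41 CPM in ND and at 4.07, 3.7 and 3.11 in RD. In MG it was at 1.53, 1.43, 2.28 and 2.21 in ND and at 2.87, 3.48, 2.89 and 3.18 in RD. The RD libraries lay above all ND libraries in both. The fold change was 1.02 ± 0.21 in n_ZFP_a_Rpl (adjusted p = 9.67e-04), 0.74 ± 0.23 in MG (0.0217), -0.08 in hSyn (0.849) and -0.28 in n_ZFP_n_Rpl (0.193). Without the libraries that stood apart the MG value was 0.68 and no longer passed (0.0523), nor did it without ND 1 (0.0632), ND 2 (0.0701) or RD 2 (0.0599).

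Its copy Hspa1b rose by 1.43 ± 0.40 in n_ZFP_a_Rpl (adjusted p = 0.00857) and fell by 0.93 ± 0.24 in n_ZFP_n_Rpl (0.00442). In the latter, ND libraries held 1.45 to 3.7 CPM and RD libraries 1.04 to 1.52, so the groups overlapped. Dnajb1, the HSF1-driven J-domain partner of inducible HSP70, rose by 0.36 ± 0.09 in n_ZFP_a_Rpl (0.00463), by 0.39 ± 0.14 in MG (0.0403) and by 0.21 in hSyn (0.0161). Its value in n_ZFP_n_Rpl was 0.10 (0.27), and the rise in MG did not pass after scaling by RLE factors (0.0514). Of the 12 members on a list of HSF1 targets, 5 rose and none fell in n_ZFP_a_Rpl, 3 rose and 1 fell in MG, 3 rose and 4 fell in hSyn, and 3 fell in n_ZFP_n_Rpl. The shares of all genes called were 45.3%, 33.5%, 51% and 51.4% in the same order.

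The HSP110 gene Hsph1, a nucleotide exchange factor for HSP70, fell in both neuron IPs and in MG. It was at 466, 520, 556 and 444 CPM in ND and at 293, 288, 277 and 231 in RD of n_ZFP_n_Rpl. In hSyn it was at 388, 672, 501, 612 and 567 in ND and at 333, 283 and 333 in RD. Every RD library was below every ND library, and the fold change was -0.87 ± 0.09 in n_ZFP_n_Rpl (adjusted p = 1.26e-06) and -0.79 ± 0.15 in hSyn (5.67e-04). In MG it was -0.42 ± 0.10 (0.0038), and in n_ZFP_a_Rpl -0.15 (0.0854).

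Dnajb5, a J-domain protein of the DNAJB1 type, went the same way. It was at 89.5, 93, 95 and 104 CPM in ND and at 56.4, 42.5, 39.5 and 44.4 in RD of the n_ZFP_n_Rpl IP (-1.06 ± 0.09, adjusted p = 2.00e-07), and at 71.8, 113, 78.8, 103 and 76 against 47.5, 44.9 and 48.8 in hSyn (-0.91 ± 0.16, 2.33e-04). The groups were separate in both IPs. In MG the fold change was -0.65 ± 0.14 (0.0019), and in n_ZFP_a_Rpl -0.18 (0.0623). All 12 immediate early genes also fell in both neuron IPs. In MG, where Hsph1 and Dnajb5 fell, 1 of the 12 did. The immediate early sum of MG RD 2 was 1190 CPM, against 136 to 170 in the other RD libraries and 387 to 1060 in ND. In n_ZFP_a_Rpl, where neither Hsph1 nor Dnajb5 passed, 6 of the 12 fell. The shares of all genes that fell were 25.5% in hSyn, 26.2% in n_ZFP_n_Rpl, 16.2% in MG and 24.7% in n_ZFP_a_Rpl. The part of the immediate early genes was not tested.

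Among small heat shock genes, Hspb8, which acts with BAG3 in chaperone-assisted autophagy, fell in 3 IPs. In hSyn it was at 17.2, 13.4, 11.1, 18.2 and 20.9 CPM in ND and at 5.47, 5.74 and 5.81 in RD, and in n_ZFP_n_Rpl at 6.37, 9.01, 11.1 and 8.2 in ND and at 5.81, 4.45, 6.58 and 5.39 in RD. The groups were separate in hSyn and overlapped in n_ZFP_n_Rpl. Fold changes were -1.51 ± 0.22 in hSyn (adjusted p = 3.91e-05), -0.64 ± 0.16 in n_ZFP_n_Rpl (0.00292), -0.44 ± 0.11 in n_ZFP_a_Rpl (0.00476) and -0.29 in MG (0.0771).

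Hspb1 (HSP27) was at 1.47, 0.911, 0.596, 1.49 and 1.25 CPM in ND and at 0.484, 0.265 and 0.442 in RD of hSyn (-1.53 ± 0.34, adjusted p = 0.00139), and changed by -0.97 ± 0.34 in n_ZFP_n_Rpl (0.0255), where the groups overlapped and the call was lost without ND 3 (0.0772), ND 4 (0.0671) or any 1 of RD 1 to RD 3 (0.0511 to 0.0777). It stood at 0.21 in MG and -0.03 in n_ZFP_a_Rpl, neither past the test. In ND, Hspb8 was 1.44 ± 0.11 log2 units lower in the neuron IPs than in the astrocyte IPs. Astrocyte markers fell together with both genes in the neuron IPs: 10 of 10 in hSyn, where they summed to 4760 to 6570 CPM in ND and 2470 to 2970 in RD, and 6 of 10 in n_ZFP_n_Rpl, where they summed to 2900 to 3650 and 1440 to 2020. Of 10 vascular markers 5 fell in hSyn and 2 in n_ZFP_n_Rpl. The astrocyte sums were also lower in RD of the astrocyte IPs, at 18700 to 23000 CPM in ND and 14100 to 15400 in RD of n_ZFP_a_Rpl, where 5 of 10 markers fell, and at 20900 to 26600 and 12700 to 17800 in MG, where 2 fell. The shares of all genes that fell were 25.5% in hSyn, 26.2% in n_ZFP_n_Rpl, 24.7% in n_ZFP_a_Rpl and 16.2% in MG. The part of astrocytes and vascular cells in the fall of Hspb8 and Hspb1 was not tested. Bag3 fell in hSyn only among the IPs (-0.51, adjusted p = 0.0091).

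Several central chaperones did not pass the test in any IP. The mitochondrial HSP70 Hspa9 gave fold changes of 0.11, 0.03, -0.04 and -0.08 in MG, n_ZFP_a_Rpl, hSyn and n_ZFP_n_Rpl. The constitutive cytosolic HSP90 Hsp90ab1 gave 0.04, -0.13, 0.04 and -0.01. Hspd1 and Hsf1 likewise passed in none. Hspe1 passed in hSyn alone (-0.21, adjusted p = 0.0167), and the inducible Hsp90aa1 in n_ZFP_a_Rpl alone (0.19, 0.0103). Of the 9 mitochondrial members 2 rose in MG, none changed in n_ZFP_a_Rpl, 2 rose and 1 fell in hSyn, and 1 rose in n_ZFP_n_Rpl. The shares of all genes called were 33.5%, 45.3%, 51% and 51.4% in the same order.

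Whether the R6/2 change of a member differed between neuron and astrocyte IPs was tested as the RD vs ND change of hSyn and n_ZFP_n_Rpl minus that of MG and n_ZFP_a_Rpl. The difference passed for 17 of 73 members, 4 with the change higher in neurons and 13 with it lower, against 20.7% of all genes. The median was -0.072 for members and 0.014 for all genes. Those with the change lower in neurons included Hspa1b (-1.62), Hspb1 (-1.33 ± 0.32, adjusted p = 0.00216), Hspa1a (-1.05 ± 0.25, 0.00147), Hspb8 (-0.70 ± 0.17, 0.00163), Dnajc8 (-0.57, 1.60e-05), Dnajb5 (-0.56, 0.00101), Hsp90b1 (-0.54 ± 0.08, 4.69e-06), Hsph1 (-0.53 ± 0.11, 3.96e-04) and Hspa5 (-0.50 ± 0.10, 2.26e-04). Those with the change higher in neurons were Dnajc4 (0.34), Hspa12a (0.29), Bag4 (0.25) and Dnajc18 (0.12). Without the third RD library of the n_ZFP_a_Rpl IP, 27 members passed. Between the n_ZFP sets alone, Hspb8 (-0.20, 0.565) and Hspb1 (-0.94, 0.209) did not.

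The same difference was formed between the Inputs of hSyn and n_ZFP_n_Rpl and the Input of n_ZFP_a_Rpl, a comparison added after the values were seen. It passed for 9 of 73 members, 3 higher and 6 lower, against 7.18% of all genes. Hspa5 (-0.52 ± 0.13, adjusted p = 0.0127), Hsp90b1 (-0.49 ± 0.09, 0.00115), Hsph1 (-0.55 ± 0.14, 0.0134), Dnajb5 (-0.66 ± 0.14, 0.00286) and Dnajc8 (-0.31 ± 0.08, 0.00875) passed again, as did Bag4 (0.26 ± 0.07, 0.0143). The Input differences of Hspb8 (-0.10, 95% interval -0.45 to 0.25) and Hspb1 (-0.39, -1.09 to 0.30) did not. Those of Hspa1a (-1.074, interval -1.831 to -0.3163, adjusted p = 0.08005) and Hspa1b (-1.715, -2.985 to -0.4449, 0.09791) did not pass either. Without the first RD library of the n_ZFP_a_Rpl Input, 5 members passed, and Hspa5 (0.0553) and Hsph1 (0.0632) no longer did.

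In the n_ZFP sets, the change of the IP to Input ratio in n_ZFP_n_Rpl minus that in n_ZFP_a_Rpl, also added afterwards, passed for 2 members of 73 (against 3.53% of all genes): Dnajc8 (-0.26 ± 0.07, adjusted p = 0.0449) and Hspa14 (-0.27 ± 0.07, 0.0375). Neither passed in a fit without the pairing of IP and Input libraries by number, the replicate block, where the count was 0. Leaving out 1 pair of IP and Input libraries gave 0 to 3. That of Hspa5 was -0.03, with a 95% interval from -0.15 to 0.09, and that of Hsp90b1 was -0.11. Hsph1 gave -0.19 (interval -0.34 to -0.04, adjusted p = 0.172) and Dnajb5 -0.20 (-0.37 to -0.02, 0.253). Each set was labelled with 1 cell type, and MG had no Input. For every member, the set from which a library came and the cell type of its IP therefore cannot be told apart. Input is RNA of the whole homogenate, and Hspa5, Hsp90b1, Hsph1, Dnajb5, Dnajc8 and Bag4 differed between sets in the Inputs too. The Input differences of Hspa1a and Hspa1b (-1.074 and -1.715) were near those of the IPs (-1.05 and -1.62), though not past the test.

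**Figure D3:**
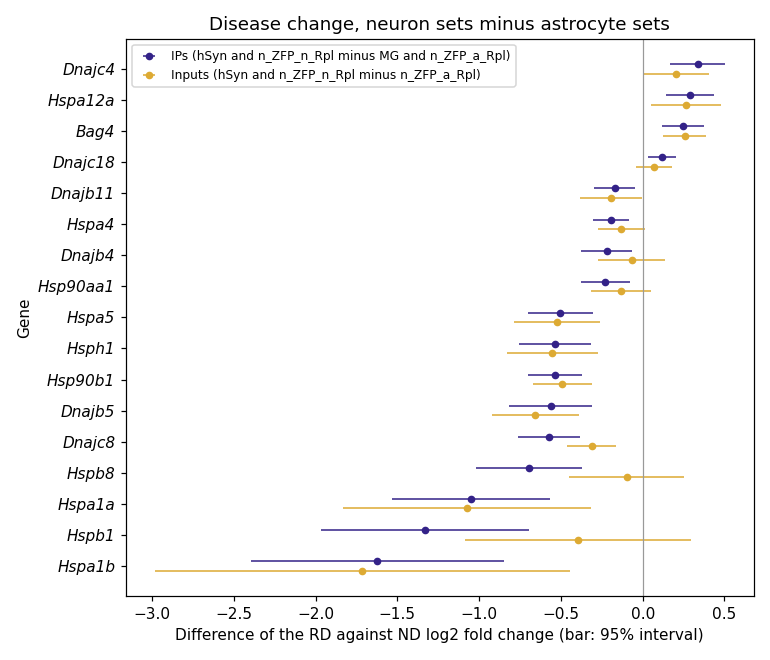
RD vs ND log2 fold change in the neuron sets minus that in the astrocyte sets for the 17 members past the threshold in the IPs, shown for the IPs (hSyn and n_ZFP_n_Rpl minus MG and n_ZFP_a_Rpl) and the Inputs (hSyn and n_ZFP_n_Rpl minus n_ZFP_a_Rpl), with 95% intervals. Hspa5, Hsp90b1, Hsph1, Dnajb5, Bag4, Hspa12a, Dnajb11, Hspa1a and Hspa1b sit near the same value in IPs and Inputs. Hspb8 and Hspb1 lie nearer to 0 in the Inputs.

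Genes that work beside the members were read from lists of the same pathway, whose shares of called genes stand against 33.5%, 45.3%, 51% and 51.4% of all genes in the MG, n_ZFP_a_Rpl, hSyn and n_ZFP_n_Rpl IPs. Of 15 HSP90 co-chaperones, 7 rose and 1 fell in MG, 7 and 2 in n_ZFP_a_Rpl, 6 and 2 in hSyn, and 3 and 2 in n_ZFP_n_Rpl (53.3%, 60%, 53.3% and 33.3%). Ahsa2, an activator of the HSP90 ATPase, rose by 0.82 ± 0.09, 1.00 ± 0.12, 1.06 ± 0.10 and 1.01 ± 0.07, and Fkbp4, a peptidyl-prolyl isomerase of steroid receptor complexes, by 0.44, 0.40, 0.38 and 0.28 in the same order. Chordc1, an HSP90-binding protein, fell in the neuron IPs alone (-0.76 in hSyn and -0.87 in n_ZFP_n_Rpl).

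Of 14 genes of the cytosolic chaperonin TRiC and its partner prefoldin, 8 rose and 1 fell in MG, 8 and 2 in n_ZFP_a_Rpl, 6 and 0 in hSyn, and 4 and 3 in n_ZFP_n_Rpl, with medians of 0.23, 0.17, 0.098 and 0.059 (64.3%, 71.4%, 42.9% and 50% called). The prefoldin subunit Vbp1 rose by 0.45, 0.46, 0.55 and 0.63. Of 13 HSP70 cofactors outside the symbol rule, 1 rose and 2 fell in MG, 0 and 4 in n_ZFP_a_Rpl, 2 and 5 in hSyn, and 1 and 3 in n_ZFP_n_Rpl (23.1%, 30.8%, 53.8% and 30.8%). Sil1, the nucleotide exchange factor of BiP, changed by -0.74 in hSyn and -0.63 in n_ZFP_n_Rpl.

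Of 14 ER folding and quality control genes, 3 rose and 1 fell in MG, 5 and 1 in n_ZFP_a_Rpl, and 1 and 2 in each neuron IP (28.6%, 42.9%, 21.4% and 21.4%). The disulfide isomerase Pdia4 rose in MG (0.22) and n_ZFP_a_Rpl (0.35), and the ER chaperone cofactor Sdf2l1 fell in hSyn (-0.91) and n_ZFP_n_Rpl (-0.78). Of 9 mitochondrial protein quality control genes 4 rose in MG, 2 rose in n_ZFP_a_Rpl, 2 rose and 1 fell in hSyn, and 1 rose and 3 fell in n_ZFP_n_Rpl (44.4%, 22.2%, 33.3% and 44.4%). Of 8 other small heat shock and stress genes, 1 rose and 1 fell in MG, 2 and 1 in n_ZFP_a_Rpl, 2 and 2 in hSyn, and 2 and 3 in n_ZFP_n_Rpl (25%, 37.5%, 50% and 62.5%). The heme oxygenase gene Hmox1 among them fell in all 4 IPs (-0.64, -0.64, -1.23 and -0.71).

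The effect of the ZFP in R6/2 mice (RZ vs RD) was read in each set. It shares the RD libraries with the comparison above, so both values are given side by side. In the n_ZFP_a_Rpl IP 7 of 72 members rose and 12 fell (26.4%, against 33.8% of all genes). In the n_ZFP_n_Rpl IP 6 of 72 rose and 3 fell (12.5%, against 17.4%). Leaving out 1 library of n_ZFP_n_Rpl gave 3 to 9 called members, with 4 without RD 2 or RD 3, 5 without RD 4 and 3 without RZ 2. No member passed in the MG IP (against 0.0782% of all genes) or the hSyn IP (0.0391%), by edgeR or by DESeq2. At an unadjusted p under 0.05, 18 members of MG and 2 of hSyn would have passed. Without MG RZ 1 edgeR called 18 members in MG, and without all libraries that stood apart it called 13, of which 12 were lower.

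In the n_ZFP_a_Rpl IP, Hspa5 was at 538, 480 and 473 CPM in RD and at 393, 372, 363 and 417 in RZ. All RZ libraries lay below all RD libraries and above the ND mean of the same IP, and the fold change was -0.36 ± 0.06 (adjusted p = 1.44e-04), beside 0.51 for RD vs ND. Dnajc3 went from 137, 130 and 128 in RD to 109, 99.9, 103 and 113 in RZ (-0.31 ± 0.05, 4.62e-04), beside 0.29. Of the 8 ER members 4 fell and none rose, against 33.8% of all genes called in this IP. Bag2 (-0.51 ± 0.17, 0.0313) and Hspa13 (-0.15, 0.0224) also fell, beside rises of 0.93 and 0.52. The fall of Bag2 did not pass without RD 1 (0.0644), RD 2 (0.116), RZ 2 (0.0733), RZ 3 (0.0552) or RZ 4 (0.0657).

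Dnajc8 rose in both n_ZFP IPs. It went from 49, 49.8 and 47.3 CPM in RD to 62.3, 63.6, 65.1 and 62.7 in RZ of n_ZFP_a_Rpl (0.38 ± 0.04, adjusted p = 1.13e-06), where ND held 68.2 to 72. In n_ZFP_n_Rpl it went from 43 to 43.9 CPM in RD to 64, 67.8, 62.7 and 63 in RZ (0.57 ± 0.04, 6.29e-08), where ND held 81.7 to 85.9. RZ libraries lay between RD and ND without overlap in both IPs. Dnajc2 rose by 0.46 ± 0.06 in n_ZFP_a_Rpl (1.68e-05) and by 0.21 in n_ZFP_n_Rpl (0.0483), and Dnajb5 by 0.48 ± 0.07 (1.28e-04) and 0.33 ± 0.09 (0.0195). In n_ZFP_n_Rpl, Hsp90b1 rose from between 287 and 297 CPM to 326, 339, 350 and 323 (0.19 ± 0.05, 0.00968), and Hspb8 rose by 0.54 ± 0.16 (0.0261). In n_ZFP_n_Rpl the rises of Hspb8, Dnajb5 and Dnajc2 did not pass without RD 2 (0.082, 0.0616 and 0.0792) or RZ 2 (0.0651, 0.0645 and 0.0695), among others. Hsph1 did not pass there (0.20, 0.136).

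Striatal projection neuron markers also moved with the ZFP. They summed to 1940 to 2640 CPM in RD and 5780 to 6550 in RZ of the n_ZFP_a_Rpl IP, and to 2560 to 3440 and 4130 to 6850 in the n_ZFP_n_Rpl IP. Their part was not tested. Hspb6, named after its values were seen, moved further from ND. It was at 1.36 to 2.03 CPM in ND, 1.02 to 1.43 in RD and 0.7 to 0.964 in RZ of n_ZFP_a_Rpl (-0.64, adjusted p = 0.0122). Astrocyte markers took the same course in this IP, with sums of 18700 to 23000 CPM in ND, 14100 to 15400 in RD and 11600 to 12600 in RZ, and 9 of 10 fell in RZ vs RD. Their part in the RZ vs RD changes of this IP was not tested.

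In the Inputs, 6 members rose and 3 fell in n_ZFP_a_Rpl (against 16.1% of all genes), 1 rose and 1 fell in n_ZFP_n_Rpl (3.32%), and none passed in hSyn by edgeR or DESeq2 or at an unadjusted p under 0.05 (0%). Hspa5 fell by 0.24 (adjusted p = 0.00166) and Dnajc8 rose by 0.31 (1.32e-04) in the n_ZFP_a_Rpl Input. Dnajc8 rose by 0.21 in the n_ZFP_n_Rpl Input (0.0141), a call that left 0 to 2 members when 1 library was omitted, with 1 without RD 3, RD 4 or RZ 4 and 0 without RZ 2. In the n_ZFP_a_Rpl Input, omitting 1 library left between 5 members (without RD 2 or RZ 2) and 11.

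**Figure D4:**
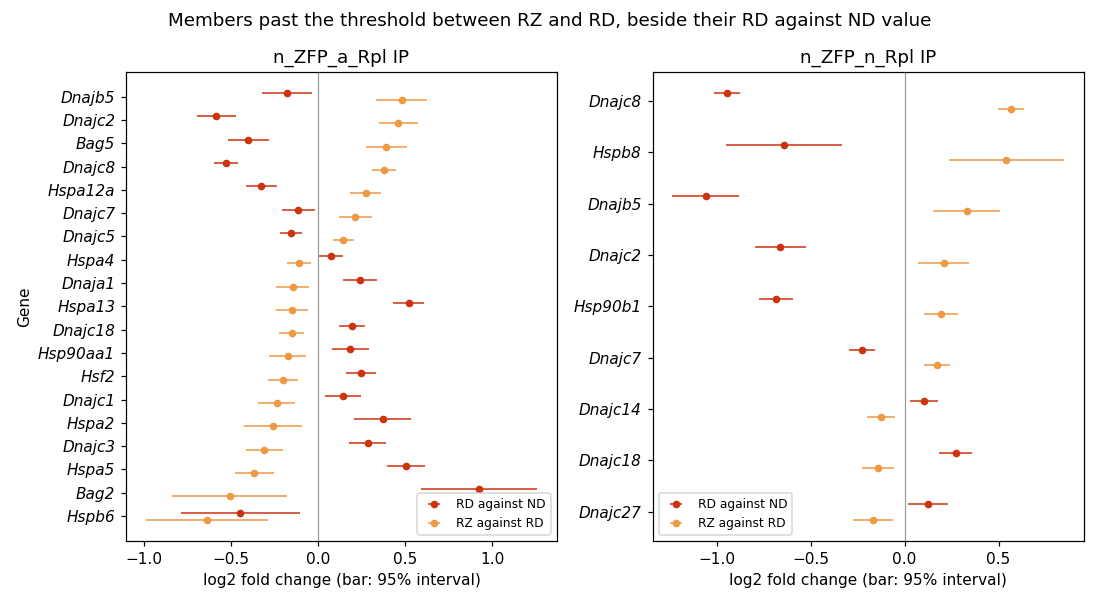
Log2 fold change of RZ against RD for the 19 members past the threshold in the n_ZFP_a_Rpl IP and the 9 in the n_ZFP_n_Rpl IP, drawn beside the RD vs ND value of the same member, with 95% intervals. Dnajc8, Dnajc2 and Dnajb5 have a negative RD vs ND value and a positive RZ vs RD value in both panels, Hspa5 and Dnajc3 the reverse in n_ZFP_a_Rpl, and the 2 comparisons share the RD libraries.

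Whether the ZFP acted differently in R6/2 than in NCAR mice was tested by the interaction of ZFP and genotype. In n_ZFP_a_Rpl it passed for 7 members, 4 higher and 3 lower (against 16.5% of all genes), with Hspa5 at -0.37 ± 0.08 (adjusted p = 0.00413), Dnajc3 at -0.25 and Dnajc8 at 0.34 (2.77e-04). In n_ZFP_n_Rpl it passed for 9, 7 higher and 2 lower (13.1%), with Dnajc8 at 0.56 ± 0.05 (2.77e-05), Dnajb5 at 0.52, Hsph1 at 0.51 and Hsp90b1 at 0.27 ± 0.07 (0.0125). This count was 5 without any 1 of ND 3, RD 2, RD 4, RZ 1 or RZ 2. An interaction also holds the change in NCAR mice. Hsph1 in the n_ZFP_n_Rpl IP had means of 497 CPM in ND and 402 in NZ, and of 272 in RD and 313 in RZ. Its RZ vs RD change did not pass. No gene of any kind passed in MG or hSyn (0%). Marker lists moved in the same interaction. In n_ZFP_a_Rpl 8 of 9 striatal projection neuron markers (median 1.29) and 5 of 8 neuron markers (0.40) were higher, and in n_ZFP_n_Rpl 7 of 9 projection neuron markers (1.26) and 7 of 12 immediate early genes (1.65). Their part was not tested.

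In NCAR mice the ZFP (NZ vs ND) changed few members. In MG 4 rose and 1 fell (7.04%, against 7.05% of all genes). Hspa1a was at 1.53, 1.43, 2.28 and 2.21 CPM in ND and at 3.81, 6.39, 3.69 and 2.79 in NZ (1.17 ± 0.23, adjusted p = 0.0212), and Dnajb1 at 39.8, 36, 41.5 and 36.8 against 42.6, 64.8, 62.9 and 50.9 (0.52 ± 0.14, 0.0386). The NZ libraries lay above the ND libraries for both genes. Hspa1b (1.63 ± 0.37, 0.0278) and Hspb8 (0.45, 0.0414) rose and Bag4 (-0.32, 0.0419) fell. These calls depended on single libraries: none was left without ND 1, ND 2 or NZ 3, between 1 and 3 without ND 3, ND 4 or NZ 5, and between 10 and 12 passed without NZ 2, RD 4 or RZ 1, with 21 without the libraries that stood apart. With replicate number as a block, a number that did not pair these libraries, Hspa1a gave 0.0936 and Dnajb1 0.216, and 0 members passed. Immediate early genes summed to 387 to 1060 CPM in ND and 605 to 1250 in NZ. Projection neuron markers were lower in every NZ library of MG than in any ND library (4420 to 7510 against 7980 to 8600 CPM, 5 of 9 past the test), as were neuron markers (4820 to 4950 against 5340 to 5940), and their part was not tested.

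In the n_ZFP_n_Rpl IP Hsph1 (-0.30, adjusted p = 0.049) and Dnajb1 (-0.26, 0.042) fell (against 7.36% of all genes), and 0 to 4 members passed when 1 library was left out, with 0 without NZ 1, NZ 2, NZ 4, RD 1, RD 2 or RD 3, 1 without ND 3, RD 4, RZ 1, RZ 2 or RZ 3 and 4 without ND 1. Immediate early genes summed to 895 to 1920 CPM in ND and to 454 to 877 in NZ of this IP, without overlap, and 5 of 12 fell. Their part was not tested. In its Input Dnajc2 fell (-0.24, 0.0321), against 3.03% of all genes. No member passed there without ND 3, ND 4, NZ 1, NZ 2 or NZ 4, and 5 did without ND 1 and 2 without RD 1. No member passed by edgeR in the n_ZFP_a_Rpl IP (2.07% of all genes), the hSyn IP (0.0261%), the hSyn Input (0.00622%) or the n_ZFP_a_Rpl Input (0.957%). In that order 13, 1, 1 and 10 members had an unadjusted p under 0.05, and DESeq2 called 1 member in the n_ZFP_a_Rpl IP and 0 in the other 3.

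Most members were higher in the IP than in the Input. IP was higher for 43 of 73 members and lower for 10 in hSyn. It was higher for 48 and lower for 16 in n_ZFP_a_Rpl, and for 54 and 10 in n_ZFP_n_Rpl. Of all genes, 78.7%, 84.9% and 83.3% were called in these sets, counting both directions together. The medians of the members were 0.23, 0.20 and 0.31, beside -0.0089, -0.0094 and 0.021 for all genes. Hsph1 was enriched by 0.76, 0.52 and 0.74, Hsp90ab1 by 0.59, 0.75 and 0.76, and Hspa9 by 0.42, 0.93 and 0.65. Hspb8 was enriched in the astrocyte IP only (1.56 ± 0.05), with -0.19 in hSyn, which did not pass, and -0.17 in n_ZFP_n_Rpl, where it was lower. Bag3, its partner, gave 1.08 in n_ZFP_a_Rpl, 0.32 in hSyn and -0.06, not past the test, in n_ZFP_n_Rpl. Dnajc1, an ER J-domain protein, was depleted in all 3 (-1.27, -0.84 and -1.22).

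Between the neuron and astrocyte IPs in ND, 34 of 73 members were higher in the neuron IPs and 16 in the astrocyte IPs (against 69.5% of all genes called), with a median of 0.086 beside 0.052 for all genes. Of 10 astrocyte markers all were lower in the neuron IPs (median -2.61), while of 8 neuron markers 5 were higher and 1 lower, with a median of 0.16. Dnajb5 (1.00 ± 0.09), Dnajc30 (0.80), Bag1 (0.75), Hsph1 (0.56), Hsf1 (0.51) and Dnajb1 (0.50) were higher in the neuron IPs. Hspb8 (-1.44 ± 0.11), Hspa2 (-1.03), Bag3 (-0.61), Dnajc3 (-0.54) and Hspa9 (-0.41) were higher in the astrocyte IPs. Of the 8 ER members 4 were higher in the astrocyte IPs and none in the neuron IPs (50% called, against 69.5% of all genes).

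Hspa8 (HSC70), the constitutive cytosolic HSP70, varied more between libraries of 1 group than any other member with at least 5 CPM. In the MG IP its 4 RD libraries held 391, 527, 481 and 1330 CPM and its 4 RZ libraries 1770, 1380, 953 and 325. The ratio of the highest to the lowest library within a condition reached 5.46 in MG, 3.58 in the hSyn IP, 2.76 in the n_ZFP_a_Rpl IP and 4.52 in the n_ZFP_n_Rpl IP. The median of that ratio over members with at least 5 CPM was 1.15 to 1.29 in these IPs, and the next highest, that of Dnajc28, was 1.9 to 2.73. In the n_ZFP sets the same numbers were high or low in IP and Input: n_ZFP_n_Rpl RD held 740, 285, 1140 and 1120 CPM in the IP and 519, 203, 799 and 784 in the Input. Some numbers also stood out in 2 conditions of an IP. Number 2 was lowest in RD (285 CPM) and RZ (247) of n_ZFP_n_Rpl, and number 4 highest in ND (836) and NZ (929) of n_ZFP_a_Rpl, whereas number 4 was highest in ND (900) and not in NZ (554, against up to 636) of n_ZFP_n_Rpl. What the numbers share is not given in the labels. Hspa8 rose in RD vs ND of hSyn, from 663, 892, 754, 815 and 791 to 1570, 1770 and 1790 CPM in the IP (1.13 ± 0.30, adjusted p = 0.00743) and by 1.10 in the Input (0.0114), which replicate number as a block, a number that did not pair these libraries, took to 0.97 (0.138). In MG (-0.71 ± 0.50, 0.302), n_ZFP_a_Rpl (0.11, 0.826) and n_ZFP_n_Rpl (0.25, 0.625) it did not pass.

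**Figure D5:**
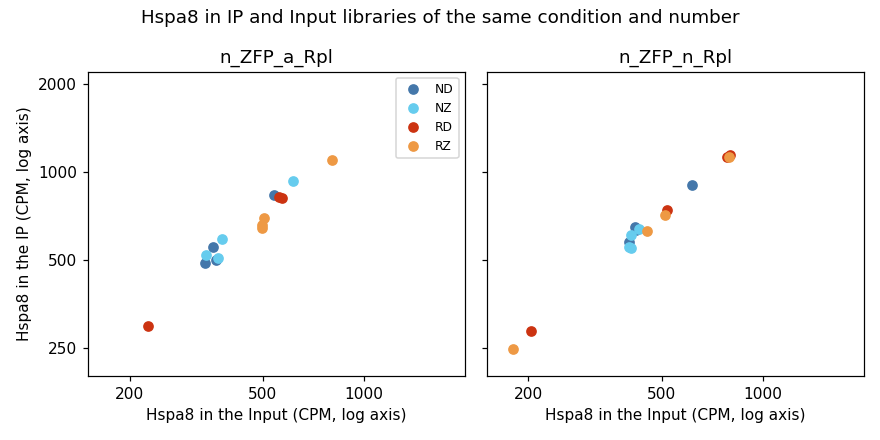
Hspa8 in the IP (vertical axis) against Hspa8 in the Input of the same number and condition (horizontal axis), both in CPM on log axes, in n_ZFP_a_Rpl and n_ZFP_n_Rpl, with 1 point per pair of libraries and colours for the condition. Libraries of 1 condition spread along the diagonal, such as n_ZFP_n_Rpl RD from 285 to 1140 CPM in the IP and from 203 to 799 in the Input.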

How the data were processed

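RNA-seq of 110 libraries (63 IP and 47 Input) was read from 1 table of raw counts per gene symbol, which the authors deposited. Per the submitters' processing notes, reads were aligned with STAR to mm10 and counted with HTSeq. What the versions and options were, and whether counting used strand, is not given in the sources used here, so overlapping and antisense genes cannot be told apart. Libraries were made with the Illumina TruSeq RNA kit, per the labels' protocols. Of 24060 rows, 4 with a repeated symbol were left out.

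Counts were tested with edgeR 4.0.16 in R 4.3.3 (limma 3.58.1): filterByExpr with a minimum count of 10 and a minimum total of 15, TMM factors, robust quasi-likelihood fits over the 4 conditions of each set and fraction, and Benjamini-Hochberg adjustment over all genes, called under 0.05. Levels are CPM after TMM scaling. IP vs Input used the same test within a set, and the neuron and astrocyte IPs were fitted together. Scripts were tested on simulated counts. Alternatives were DESeq2 1.42.0, RLE factors, no filter, only the 2 groups compared, replicate number as a block, the n_ZFP sets only, each library left out and, added after seeing the data, the libraries that stand apart left out. For the change of the IP to Input ratio, each pair of IP and Input libraries was left out instead. A library stood apart where its root mean square log2 deviation from its group exceeded 0.22. No pair of libraries within a group was a copy of another.

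Members and lists were chosen with earlier results of these data known. Always named were the widely studied members, and in each comparison also up to 5 called members with the highest and 5 with the lowest fold change among those with a mean of at least 5 CPM, and up to 2 genes in each direction from each other list. Correlations of same-numbered libraries of different conditions ranged from -0.539 to 0.481, with medians by table between -0.0359 and 0.196 (the n_ZFP_n_Rpl IP), so numbers were not taken to pair conditions. IP and Input of 1 number did in the n_ZFP sets (0.438 to 0.846), which were blocked by pair for the change of the IP to Input ratio. In hSyn they ran from -0.278 to 0.82: IP 1 to 4 of ND correlated best with the Input numbered 1 higher (0.61 to 0.78) and not with their own number, and IP 5 of NZ with Input 4 (0.7). IP and Input numbers were therefore not taken as pairs in hSyn, and none were reassigned. Promoter windows of 250 bases before to 50 after the start came from RefSeq, GRCm38.p6, matched by symbol.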

Additional observations from a re-analysis of the deposited data

Results flagged for a closer look

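Within groups of 4 or 5 libraries, 10 of 156 sets of values tested held a library far from the others by Dixon's criterion, and chance alone flags about 1 in 20. In 9 of the 10 the gene was Hspa8. It stood at 730 CPM in MG ND 1 against 1220 to 1280 in the other ND libraries, and at 1330 in MG RD 4 against 391 to 527. It stood at 1620 in the IP of hSyn RZ 4 (985 to 1010 in the others) and at 1460 in the Input of the same number (840 to 907). In n_ZFP_a_Rpl RZ 1 it stood at 1100 in the IP (642 to 696) and at 801 in the Input (497 to 504). Inputs of n_ZFP_a_Rpl ND 4 (539 against 335 to 362), n_ZFP_a_Rpl NZ 4 (613 against 339 to 378) and n_ZFP_n_Rpl ND 4 (614 against 399 to 418) were high as well. The other value was Dnajb5 at 92.1 CPM in n_ZFP_n_Rpl NZ 2, against 80 to 81.8.

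The effect of the ZFP differed between R6/2 and NCAR mice by edgeR's interaction test for 7 members in the n_ZFP_a_Rpl IP: Dnajc8 (0.335), Dnajc2 (0.318), Hspa12a (0.292), Dnajc5 (0.163), Hspa13 (-0.199), Dnajc3 (-0.245) and Hspa5 (-0.369). It differed for 9 in the n_ZFP_n_Rpl IP: Dnajc8 (0.558), Dnajb5 (0.52), Hsph1 (0.505), Dnajc25 (0.46), Dnajc2 (0.367), Hsp90b1 (0.273), Dnajc7 (0.16), Dnajc4 (-0.406) and Hspb6 (-1.07). Hspb6 is named after its values were seen.

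The R6/2 change differed between neuron and astrocyte IPs for Dnajc4 (0.336), Hspa12a (0.289), Bag4 (0.246), Dnajc18 (0.12), Dnajb11 (-0.171), Hspa4 (-0.192), Dnajb4 (-0.22), Hsp90aa1 (-0.228), Hspa5 (-0.505), Hsph1 (-0.535), Hsp90b1 (-0.537), Dnajb5 (-0.564), Dnajc8 (-0.571), Hspb8 (-0.697), Hspa1a (-1.05), Hspb1 (-1.33) and Hspa1b (-1.62). Between the Inputs of the neuron sets and that of the astrocyte set it differed for Dnajc10 (0.305), Bag4 (0.256), Dnajc11 (0.186), Dnajc8 (-0.312), Hspb11 (-0.451), Hsp90b1 (-0.491), Hspa5 (-0.522), Hsph1 (-0.553) and Dnajb5 (-0.656). The change of the IP to Input ratio differed between the n_ZFP sets for Dnajc8 (-0.264) and Hspa14 (-0.272). All values are log2 differences.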

How the results depend on the processing

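Counts of called members for RD vs ND, IP vs Input and the level in ND stayed within 1.5 times the main count under all alternatives run. Single calls were followed for the members always named and for those named for the highest or lowest fold changes of a comparison. Of these 279 calls, none turned its direction, and 66 no longer passed under at least 1 setting. Other called members entered the counts only. DESeq2 called 13 members for NZ vs ND in the MG IP, 1 in the n_ZFP_a_Rpl IP, 4 in the n_ZFP_n_Rpl IP and 3 in the n_ZFP_n_Rpl Input, where RLE factors gave 2. With no filter, RZ vs RD in the n_ZFP_n_Rpl IP had 5. With only the 2 groups compared, NZ vs ND in the n_ZFP_n_Rpl IP and Input had 0. Without the libraries that stand apart, MG had 13 for RZ vs RD and 21 for NZ vs ND. Replicate number as a block, which does not pair these libraries, left 0 for NZ vs ND in the MG IP and in the n_ZFP_n_Rpl Input, and with no replicate block the ratio comparison left 0. In other results the block changed no count by over 1.5 times. For IP vs Input in hSyn it used the labelled numbers, which do not match IP to Input in ND (57 called against 53).

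Leaving out 1 library gave 0 to 18 members for RZ vs RD in the MG IP (18 without RZ 1), 0 to 12 for NZ vs ND in the MG IP, 0 to 1 for NZ vs ND in the n_ZFP_a_Rpl IP (1 without NZ 3) and in its Input (1 without ND 4), and 0 to 4 in the n_ZFP_n_Rpl IP and 0 to 5 in its Input. RZ vs RD ranged from 3 to 9 in the n_ZFP_n_Rpl IP, 0 to 2 in its Input and 5 to 11 in the n_ZFP_a_Rpl Input, and the interaction in n_ZFP_n_Rpl from 5 to 10. The neuron minus astrocyte difference ranged from 14 to 27 in the IPs and 5 to 12 in the Inputs. The ratio comparison, where 1 pair of IP and Input libraries was left out at a time, ranged from 0 to 3. Depth limits members near 1 CPM (Hspa1a, Hspa1b, Hspb1, Hspb6), and 5 members had too few reads for any test.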
